A study of Mus musculus with 696 samples.

Results

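Members of the interleukin-1 family were followed in single keratinocytes of mouse tail skin before and after wounding. The 9 genes of the list (Il1a, Il1b, Il1rn, Il1f5, Il1f6, Il1f8, Il1f9, Il18 and Il33) were looked up by symbol in the count table, which held rows for 7 of them among its 15652 genes. Il1b and Il1f6 were not analysed here. The cells descended from Lrig1-expressing cells of the upper hair follicle: female mice of a mixed CBA C57BL/6 background that carried Lrig1-EGFP-ires-CreERT2 together with the reporter allele Rosa26-fl/STOP/fl-tdTomato were labelled by 1 topical dose of hydroxytamoxifen, and tdTomato-positive cells were sorted from tissue that held both the wound bed and distant follicles. Cre is driven by Lrig1, so the sort covers only the progeny of cells that expressed Lrig1 at labelling. The mice were labelled at 6 to 8 weeks of age and wounded 1 week later. The 4 time points were unwounded skin (0w, 179 cells), 1 week after a first full-thickness wound (1w, 168 cells), 8 weeks after it (8w, 172 cells) and 1 week after a second wound placed over the first (9w, 177 cells). All groups, the 0w controls included, carried both alleles and had received the drug. Each time point was represented by 2 plates of sorted cells. The sample titles carry a further replicate letter that both plates of a time point share and that differs between time points, so what it marks cannot be told apart from the time point. The plates of 1w and 9w are called healing plates below and those of 0w and 8w homeostatic plates.

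Interleukin-1 family cytokines are alarm signals of epithelia. Agonists bind a receptor chain specific for each branch and recruit an accessory chain, which is Il1rap for the branches other than Il18. Myd88 and the Irak kinases then pass the signal to NF-kB. Soluble antagonists of the same family occupy the receptors without recruiting the accessory chain, and keratinocytes make both kinds of protein. Il1a encodes interleukin-1 alpha and Il1rn the antagonist of its receptor. Il1f9 and Il1f8 encode the interleukin-36 agonists gamma and beta, and Il1f5 encodes the antagonist of the interleukin-36 receptor. Il18 encodes a precursor that caspase-1 cuts, and Il33 encodes a nuclear protein that is released from damaged cells and is recognised by the receptor Il1rl1.

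Of the 7 genes, 4 lie on mouse chromosome 2 within 198334 bases. In the GRCm38 assembly (GENCODE annotation) they are protein-coding genes on the plus strand, in this order: Il1f8 at chr2:24153161-24160519, Il1f9 at chr2:24186476-24193568, Il1f5 at chr2:24276954-24283426 and Il1rn at chr2:24336853-24351494. Other genes that lie between them are not listed here. Il1a lies on the minus strand of the same chromosome at chr2:129299610-129309972, Il18 at chr9:50554827-50581840 and Il33 at chr19:29925114-29960718. Il1a overlaps the antisense gene Gm14023, and Il18 overlaps Bco2 and Tex12 on the opposite strand. The library kit does not mark strand, so reads of these partners cannot be told apart.

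Sequences upstream of the start site are shown for the neighbouring genes whose share of positive cells was higher on all healing plates, and for Il1a, the agonist on the same chromosome. They were taken from RefSeq promoters (GRCm38.p6, 250 bases before the start, gene strand, 5′ to 3′), in which all 7 genes had an entry. Capitals mark the AP-1 letters TGANTCA, searched on both strands.
Il1f9: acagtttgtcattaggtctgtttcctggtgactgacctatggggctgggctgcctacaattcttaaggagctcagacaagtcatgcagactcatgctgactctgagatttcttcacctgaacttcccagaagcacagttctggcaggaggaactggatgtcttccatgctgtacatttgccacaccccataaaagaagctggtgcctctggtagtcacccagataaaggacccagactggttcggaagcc
Il1f8: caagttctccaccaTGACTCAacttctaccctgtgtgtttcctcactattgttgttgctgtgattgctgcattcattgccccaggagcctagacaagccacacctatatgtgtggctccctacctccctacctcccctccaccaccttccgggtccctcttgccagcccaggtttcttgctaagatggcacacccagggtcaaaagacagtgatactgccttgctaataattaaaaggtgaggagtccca
Il1f5: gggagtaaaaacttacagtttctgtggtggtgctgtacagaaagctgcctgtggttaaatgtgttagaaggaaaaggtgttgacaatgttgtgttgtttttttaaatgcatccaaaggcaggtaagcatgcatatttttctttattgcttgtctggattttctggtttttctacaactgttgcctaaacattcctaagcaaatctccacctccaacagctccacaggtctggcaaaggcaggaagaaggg
Il1rn: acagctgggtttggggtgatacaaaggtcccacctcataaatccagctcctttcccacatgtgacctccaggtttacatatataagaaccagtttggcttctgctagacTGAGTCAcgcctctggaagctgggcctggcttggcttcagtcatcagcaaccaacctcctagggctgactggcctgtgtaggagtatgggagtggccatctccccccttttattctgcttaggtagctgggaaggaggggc
Il1a: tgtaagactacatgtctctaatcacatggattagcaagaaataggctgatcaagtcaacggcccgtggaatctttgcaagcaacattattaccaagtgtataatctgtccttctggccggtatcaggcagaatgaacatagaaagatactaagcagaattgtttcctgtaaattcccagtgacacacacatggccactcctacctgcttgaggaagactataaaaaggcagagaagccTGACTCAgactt
These stretches are chr2:24186226-24186475 for Il1f9, chr2:24152922-24153171 for Il1f8, chr2:24276704-24276953 for the first Il1f5 start, chr2:24336610-24336859 for the first Il1rn start and, on the minus strand, chr2:129309973-129310222 for Il1a. The AP-1 letters began at position -236 from the start of Il1f8, -141 from that of Il1rn and -12 from that of Il1a. So 3 of the 7 genes held them, in 3 of the 11 promoter entries of the members. They were found in 7.81% of all 32851 promoters of 300 bases. Of 2 other motifs searched on both strands and not marked, the NF-kB letters matched 2 of the 11 promoter entries of the members, both of Il1rn, and 1.63% of all promoters. The letters TATAAA matched 5 of the 11 entries, those of Il1a, Il18, Il1rn and Il33, and 13.6% of all promoters.

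Total estimated counts ranged from 12293182 to 19760820 per plate, with 79 to 91 cells on each, and the median share of mitochondrial counts lay between 13.0% and 30.7%, highest on 0w plate 2. The keratinocyte label was checked by Krt14, which had counts in 620 of 696 cells. Ptprc, the pan-leukocyte gene, had counts in 27 cells, and 6 immune markers other than S100a9 summed to between 2.70 and 40.8 CPM (counts per 1000000 after TMM scaling) on the plates, highest on 9w plate 2. The study's methods describe independent experiments with several biological replicates each, but neither they nor the labels tie a plate to an experiment or a mouse, so the p-values measure the spread between plates, which may be technical. In sums over cells, fewer cells of a type and less RNA per cell cannot be told apart.

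Among the agonists Il1f9 was higher at 1w and at 9w than at 0w. Il1f9 stood at 1.82 and 0.647 CPM on the 0w plates, 105 and 84.9 CPM at 1w, 10.2 and 13.8 CPM at 8w, and 29.8 and 78.7 CPM at 9w. All healing plates were above all homeostatic plates, and both 8w plates were above both 0w plates. Il1f9 was 76.4-fold higher at 1w than at 0w (log2 fold change 6.26, SE 0.80, edgeR adjusted p = 0.0128), 43.7-fold higher at 9w than at 0w (5.45, SE 0.77, adjusted p = 0.0273) and 18.6-fold higher in healing than in homeostatic plates (4.22, SE 0.51, adjusted p = 0.00517). At 8w it was 9.67-fold above 0w (3.27, SE 0.71), which did not pass the adjustment (adjusted p = 0.408). Leaving out 1 plate gave log2 fold changes of 5.69 to 7.14 at 1w and 4.62 to 6.33 at 9w, the lowest without 0w plate 2 and 9w plate 2 and the highest without 0w plate 1. The call for healing held without any 1 plate, with adjusted p of 0.0304 at most over 15 alternatives. That for 1w was lost without 0w plate 1 (0.0574) or plate 2 (0.0931), and that for 9w in 5 of 8 such fits: without 0w plate 1 (0.121) or 2 (0.156), 1w plate 1 (0.0595) or 2 (0.0511), or 9w plate 2 (0.0613). Both were also lost with every cell scaled equally (0.0536 at 1w and 0.0927 at 9w) and with the stricter filter on cells (0.0855 and 0.298), and that for 9w with only the plates compared (0.113).

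Il1f8, the other interleukin-36 agonist, had 0 counts on 0w plate 1, which allows a level of up to 0.156 CPM (3 counts), and 0.647 CPM on plate 2. It stood at 40.3 and 23.9 CPM at 1w, 4.32 and 27.0 CPM at 8w, and 13.4 and 22.0 CPM at 9w. The groups overlapped through 8w plate 2, where 1 cell held 99.0% of the Il1f8 counts. The log2 fold change from 0w to 1w was 6.61 (SE 1.41, edgeR adjusted p = 0.0813) and that of healing against homeostatic plates 3.39 (SE 0.86, adjusted p = 0.0910). Leaving out 1 plate gave 5.58 (without 0w plate 1) to 12.03 (without 0w plate 2) for the first and 2.88 to 6.10 for the second, without the same plates, and the second passed without 0w plate 2 (adjusted p = 0.0455). With the replicate number as a block these became 7.26 (adjusted p = 0.0318) and 3.90 (adjusted p = 0.0334). Without the cell of highest count on each plate, a setting chosen after seeing the data, both contrasts passed as well (adjusted p = 0.0157 and 0.00557).

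Il1a was the least detected member, with counts in 30 cells. Its level was 0.519 and 0.108 CPM at 0w, 2.75 and 8.61 CPM at 1w, 4.03 and 1.11 CPM at 8w, and 1.96 and 4.86 CPM at 9w. The 0w plates were the lowest and the other time points overlapped. The log2 difference of healing from homeostatic plates was 2.28 (SE 0.81, edgeR adjusted p = 0.216). Single cells held between 42.9% and 100% of its counts on a plate.

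Il18 stood at 1.51 and 1.02 CPM at 0w, 14.2 and 33.5 CPM at 1w, 26.9 and 2.48 CPM at 8w, and 54.6 and 23.0 CPM at 9w. Both 0w plates were below every later plate, and 8w plate 1 lay within the range of the healing plates. The log2 fold change was 4.23 at 1w (SE 1.09, edgeR adjusted p = 0.143) and 4.93 at 9w (SE 1.13, adjusted p = 0.143), each against 0w, and 2.82 for healing against homeostatic plates (SE 0.72, adjusted p = 0.0954). The last of these passed with the replicate block (3.08, adjusted p = 0.0481) and without 8w plate 1 (4.10, adjusted p = 0.0314).

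Il33, unlike the other 6 members, had a log2 difference of healing from homeostatic plates below 0, and it was not called in either direction. It stood at 128 and 186 CPM at 0w, 145 and 37.0 CPM at 1w, 50.3 and 158 CPM at 8w, and 5.95 and 94.96 CPM at 9w. Healing and homeostatic plates overlapped, and on 9w plate 1, the lowest, 1 cell held 84.7% of the counts. That difference was -0.91 (SE 0.75, edgeR adjusted p = 0.647), and it was 0.47 when cells with fewer than 2000 genes or over 20% mitochondrial counts were left out. Leaving out 1 plate gave -2.44 (without 9w plate 2) to -0.38 (without 8w plate 2), and no such fit called Il33.

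Of the antagonists Il1f5 rose in the healing plates. Il1f5 stood at 3.11 and 0.863 CPM at 0w, 15.8 and 44.9 CPM at 1w, 5.18 and 3.20 CPM at 8w, and 27.7 and 38.2 CPM at 9w. All 4 healing plates exceeded all homeostatic plates. Il1f5 was 10.9-fold higher in healing plates (log2 fold change 3.45, SE 0.58, edgeR adjusted p = 0.0190), with 3.92 at 1w (SE 0.84, adjusted p = 0.0826) and 4.04 at 9w (SE 0.85, adjusted p = 0.107) against 0w. Leaving out 1 plate gave log2 fold changes of 2.999 (without 1w plate 2) to 4.05 (without 0w plate 1) for healing. The call was lost with the stricter filter on cells (adjusted p = 0.305) and without 0w plate 2 (0.0592), 1w plate 2 (0.0717), 8w plate 1 (0.0531) or 8w plate 2 (0.0757).

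Il1rn stood at 41.8 and 13.9 CPM at 0w, 82.4 and 50.9 CPM at 1w, 13.5 and 5.68 CPM at 8w, and 64.1 and 72.6 CPM at 9w. Its healing plates too lay above all homeostatic plates, the closest of which, 0w plate 1, owed 67.9% of its counts to 1 cell. The log2 fold change was 2.04 for healing against homeostatic plates (SE 0.47, edgeR adjusted p = 0.0665), and 2.20 with the replicate block (adjusted p = 0.0161). From 8w to 9w it was 2.83 (SE 0.69, adjusted p = 0.315).

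**Figure D1:**
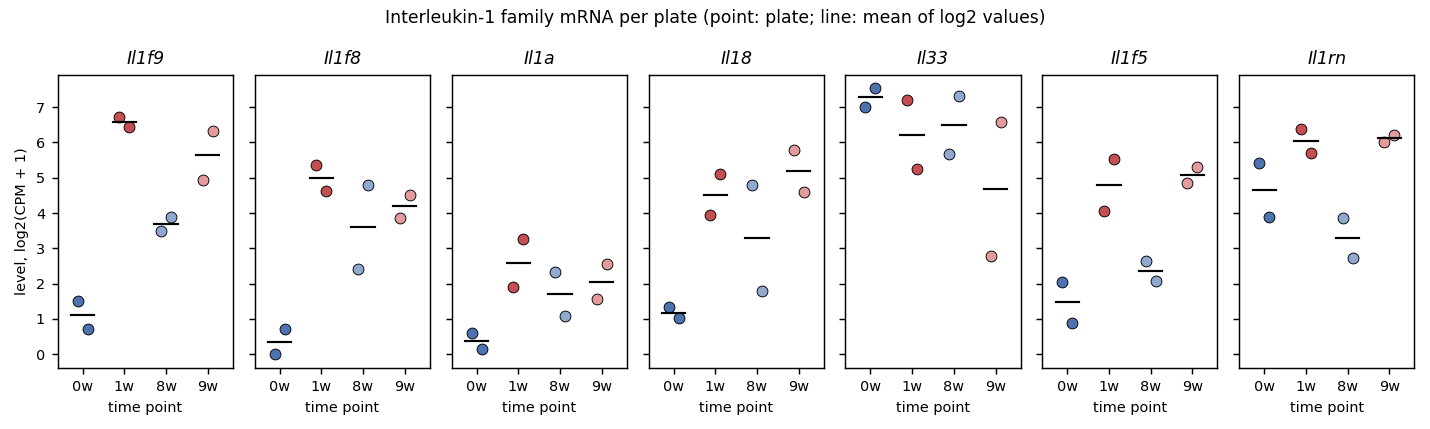
Level of each member as log2(CPM + 1) by time point, with 1 point per plate and a line at the mean of the 2 log2 values. For Il1f9, Il1f5 and Il1rn all points of 1w and 9w lie above all points of 0w and 8w, while those of Il33 overlap.

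Counted over contrasts, edgeR called 1 of 7 members at 1w against 0w, where 0.527% of all 13853 genes tested were called, and 1 of 7 at 9w against 0w, against 0.267% of all genes. In healing against homeostatic plates 2 of 7 were called, both higher, beside 1.8% of all genes called in either direction and 1.03% called higher. The median log2 fold change of the 7 was 2.82 there, against -0.0025 for all genes, and 6 of 7 were above 0 against 49.9% of all genes. The level of 3 members (Il1f9, Il1f5 and Il1rn) was higher on every healing plate than on every homeostatic plate, which held for 4.28% of all genes. In these pairs of groups 0w is shared, so the contrasts are not independent.

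At 8w against 0w no member was called by edgeR, as for 0% of all genes, although 5 of 7 had an unadjusted p below 0.05, as had 6.48% of all genes. Of these Il1f9, Il1f8, Il18 and Il1a had log2 fold changes above 0, and Il1rn was at -1.54 (SE 0.66, edgeR adjusted p = 0.745). DESeq2 called 3 of them (Il1f8, Il1f9 and Il18, all higher at 8w) and 1.26% of all genes. Between 8w and 9w edgeR called 0 members and 0.00722% of all genes, 3 members and 7.94% of all genes had an unadjusted p below 0.05, and DESeq2 called Il1rn, Il1f5 and 2.15% of all genes. The log2 change from 8w to 9w was 2.97 for Il1f5 (SE 0.81, edgeR adjusted p = 0.393), 2.18 for Il1f9 (SE 0.66, adjusted p = 0.454) and 1.40 for Il18 (SE 0.96, adjusted p = 0.763). The value of Il18 rests on single plates: it was 3.98 without 8w plate 1, 0.60 without 8w plate 2 and 0.68 without 9w plate 1. Between 1w and 9w edgeR and DESeq2 called 0 members, beside 0% and 0.285% of all genes, and 0 members had an unadjusted p below 0.05, against 6.01% of all genes.

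**Figure D2:**
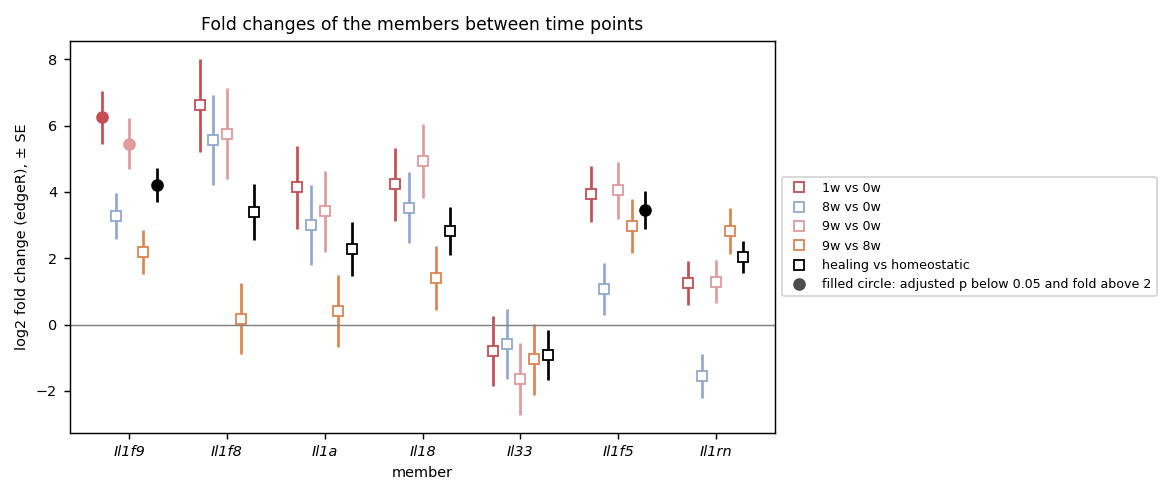
Log2 fold change of each member in 5 contrasts, with bars for the standard error derived from edgeR's F value. Filled circles mark calls (Il1f9 in 3 of the contrasts and Il1f5 in 1), and open squares all other values.

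The share of positive cells separated the healing from the homeostatic plates for 5 members. Il1f9 had counts in 9.09% and 5.49% of the cells at 0w, 39.3% and 45.6% at 1w, 21.2% and 14.9% at 8w, and 37.2% and 29.7% at 9w. Il1rn was found in 17.0% and 14.3% at 0w, 41.6% and 46.8% at 1w, 23.5% and 13.8% at 8w, and 41.9% and 38.5% at 9w. On both genes the 4 healing plates stood above the 4 homeostatic plates without overlap. Il1f5 was found in 6.82% and 7.69% at 0w, 30.3% and 39.2% at 1w, 10.6% and 6.90% at 8w, and 19.8% and 26.4% at 9w. Il1f8 went from 0 of 88 cells (up to 4.11%, exact binomial limit) and 1.10% at 0w to 21.3% and 20.3% at 1w, 3.53% and 3.45% at 8w, and 11.6% and 18.7% at 9w. The groups of these 2 genes did not overlap either. Il18 was found in 1.10% to 2.27% of cells at 0w, 10.1% to 12.7% at 1w, 4.598% to 8.24% at 8w and 9.30% to 9.89% at 9w.

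The mean share of positive cells in healing plates exceeded that in homeostatic plates by 25.3 percentage points for Il1f9 (37.9 ± 6.56 against 12.7 ± 6.88, SD over 4 plates), 25.0 for Il1rn (42.2 ± 3.46 against 17.2 ± 4.48), 20.9 for Il1f5 (28.9 ± 8.14 against 8.00 ± 1.77), 16.0 for Il1f8 (18.0 ± 4.37 against 2.02 ± 1.76) and 6.44 for Il18 (10.5 ± 1.48 against 4.05 ± 3.15). For each of these 5 members the exact two-sided permutation p was 0.0286, the smallest that 4 against 4 plates can give, and the adjusted p over 15650 genes was 0.202. When plates were exchanged only within their replicate number, a test added after seeing the data, p was 0.0556 for each of the 5, again the smallest that this exact permutation can give, so that it cannot pass 0.05. Shares without overlap in this direction were found for 11.1% of all genes. Il1a differed by 2.36 points (exact permutation p = 0.114). Il33 was found in 13.9 ± 5.50% of cells against 25.0 ± 6.01% (exact permutation p = 0.0571), on plates that overlapped. Without 8w plate 1 the Il33 difference was -13.9 points, with the smallest p that this exact permutation can give (0.0286). With the stricter filter on cells the difference was -1.84 points for Il33 (exact permutation p = 0.771), and Il18 no longer separated the plates (4.30 points, exact permutation p = 0.2). Positive cells were deeper than negative cells, with median totals of 190085 against 114349 counts for Il1f9. After each cell with at least 30000 counts was thinned to that number, 4 of the 5 members kept their separation, and Il18 did not (exact permutation p = 0.0571). The 81 cells with fewer counts were left out of the thinned shares. The loss was uneven: 66 of 87 cells stayed on 8w plate 2 and 77 of 79 on 1w plate 2.

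**Figure D3:**
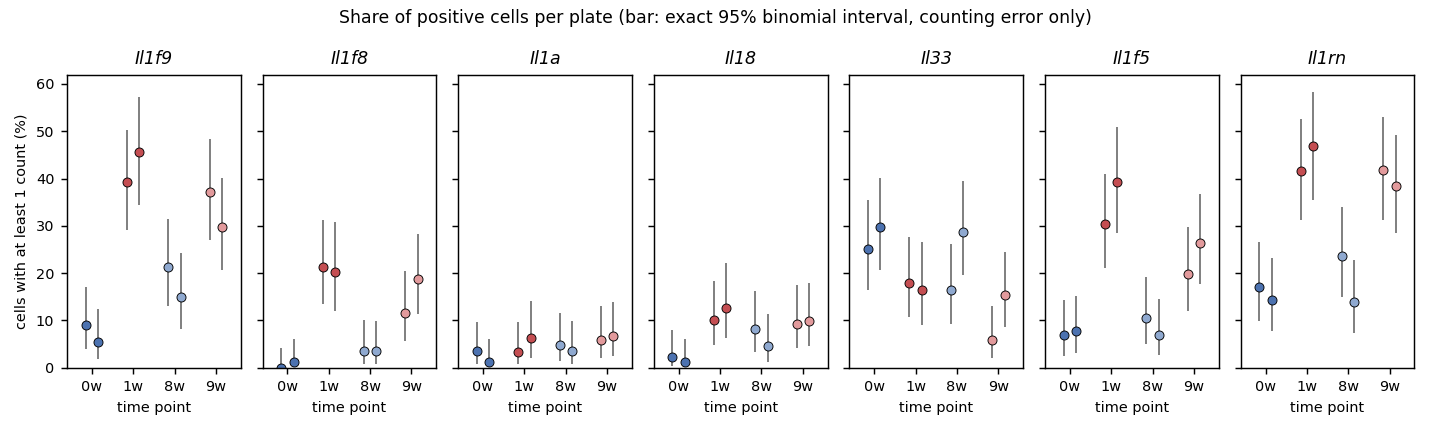
Share of cells with at least 1 count of each member, in percent, by time point and plate, with exact 95% binomial intervals that cover counting error only. The shares of Il1f9, Il1rn, Il1f5, Il1f8 and Il18 at 1w and 9w lie above those at 0w and 8w, and the shares of Il33 at 1w and 9w are mostly lower.

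Members were often found in the same cells. Cells with 3 or more of the 7 members made up 3.41% and 3.297% of the cells at 0w, 27.0% and 35.4% at 1w, 10.6% and 3.45% at 8w, and 17.4% and 25.3% at 9w. All healing plates exceeded all homeostatic plates in this share, and they did after thinning too, where the highest homeostatic plate had 3.90% and the lowest healing plate 8.64%. The highest number of members in 1 cell was 6. Of the 127 Il1f5-positive cells 66.1% also had Il1rn counts, against 21.3% of the other cells, and 55.4% against 18.5% after thinning. Of the 69 Il1f8-positive cells 66.7% had Il1f9 counts, against 20.4% of the others. Agonist and antagonist of the interleukin-36 receptor were detected together: 47.2% of Il1f5-positive cells held Il1f9. Of the 136 Il33-positive cells 35.3% held Il1f9, against 22.5% of the rest (30.6% against 15.9% after thinning), and 31.6% held Il1rn, against 28.9% of the rest (20.7% against 23.4% after thinning).

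**Figure D4:**
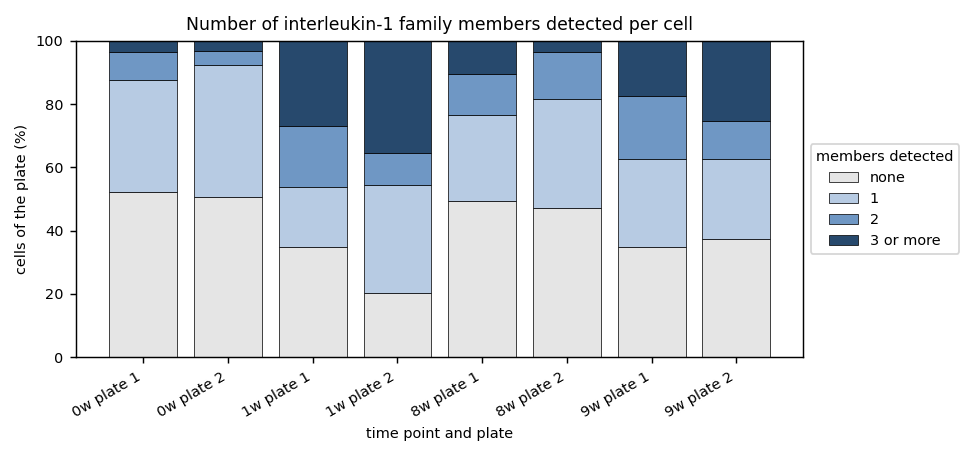
Share of the cells of each plate, in percent, in which none, 1, 2 or at least 3 of the 7 members had a count. Cells with at least 3 members make up 17.4% to 35.4% of the healing plates and at most 10.6% of the homeostatic plates.

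Over all 696 cells the genes whose log2(CPM + 1) followed a member most closely were ranked among 11934 others, as a description over cells that share plates and depth. For Il1f9 they were Cstdc5 (Pearson r = 0.62), Stfa1 (0.60) and 2610528A11Rik (0.58), the first 2 of them stefin-type protease inhibitor genes. For Il1f5 they were Serpinb12 (0.49), Elovl4 (0.48), an enzyme of very long fatty acid synthesis, and the member Il1f8 (0.46). Il1rn was followed by Calm4 (0.41), Stfa3 (0.40) and Krt1 (0.39), the keratin of suprabasal cells. Il33 had other neighbours, namely Avpr1a (0.48), Adh1 (0.43) and Tgfbr3 (0.41).

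The members differed in the cells that carried them. The cells were clustered on variable genes without the members and the pathway genes, and clusters were named only where the fixed markers allowed it; the values are a description with no test. In a wound keratinocyte-like cluster led by Krt6b, S100a9 and Krt16 (60 cells, of which 39 came from 1w, 21 from 9w and 0 from 0w and 8w), 81.7% of cells held Il1f9, 63.3% Il1rn, 55% Il33, 41.7% Il1f5 and 33.3% Il1f8. This cluster held 43.1% of all Il1f9 signal (summed CPM of cells), and a differentiated keratinocyte-like cluster led by Krt2 and with Krt10 among its leading genes (105 cells) a further 38.6%. A cluster led by Skint10 that stays unnamed (41 cells) held 47.8% of the Il1f8 signal, of which 1 cell of 8w plate 2 gave 45.2%. Without that cell the cluster held 33.4% of the signal. With that cell included, 31.7% of its cells had Il1f8 counts, close to the wound keratinocyte-like cluster. Of the cells led by Skint10, 60.98% held Il1f5 and 70.7% Il1rn. Among the marker lists, that of the upper hair follicle was raised most in these cells over the others. Its 5 markers had counts in 66% to 100% of them. For Il18, 82.7% of the signal lay in a cluster led by Asprv1, Slc46a2 and Krt77 (116 cells), and 80.5% without its highest cell. This cluster stays unnamed as well, since none of the fixed markers was among its 10 leading genes. The upper hair follicle list was raised most here too, and its 5 markers had counts in 90% to 100% of the cells. By detection Il18 was spread more widely: 22 of its 50 positive cells lay in that cluster (19.0% of the cluster), and 23.3% of the wound keratinocyte-like cells had a count.

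Il33 was distributed differently. A sebaceous gland-like cluster with Cidea and Scd1 among its leading genes (59 cells) held 46.8% of the Il33 signal, with counts in 66.1% of its cells, and the wound keratinocyte-like cluster 23.0%. In the same sebaceous gland-like cells Il1rn, Il1f5, Il1f8 and Il18 had counts in 0 of 59, and Il1f9 in 13.6%. Of these cells 38 came from 0w, 1 from 1w, 16 from 8w and 4 from 9w. The 6 sebaceous markers, all measured and with counts, summed to 905 and 7637 CPM at 0w, 606 and 584 CPM at 1w, 962 and 3884 CPM at 8w, and 852 and 653 CPM at 9w. Their part in the levels and shares of Il33 was not tested. Within the cluster, Il33 averaged 490 and 451 CPM on the 0w plates and 241 and 355 CPM on the 8w plates, the plates with 5 or more such cells.

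**Figure D5:**
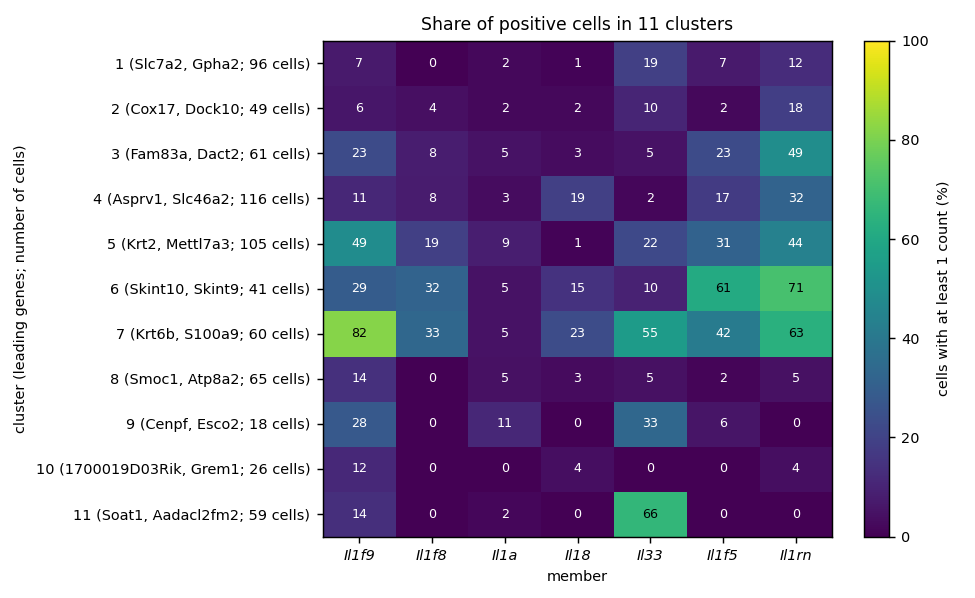
Share of cells with at least 1 count, in percent, for each member (columns) in 11 clusters (rows, with leading genes and cell numbers). Il1f9 reaches 81.7% in cluster 7, Il1rn 70.7% in cluster 6 and Il33 66.1% in cluster 11, where Il1rn, Il1f5, Il1f8 and Il18 are at 0.

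The summed markers of differentiated and of wound keratinocytes were higher on all healing than on all homeostatic plates, as were Il1f9, Il1f5 and Il1rn. The 3 wound keratins Krt6a, Krt6b and Krt16 summed to 50.7 and 52.3 CPM at 0w, 13360 and 7470 CPM at 1w, 377 and 390 CPM at 8w, and 1438 and 2595 CPM at 9w. The 6 differentiated keratinocyte markers summed to 3133 and 3413 CPM at 0w, 41936 and 38669 CPM at 1w, 6220 and 5211 CPM at 8w, and 17291 and 25395 CPM at 9w. Of the 6, Lgals7 and Sbsn overlapped between healing and homeostatic plates. The 5 granular keratinocyte markers overlapped as well, with 183 and 11.2 CPM at 0w, 238 and 126 CPM at 1w, 48.3 and 32.4 CPM at 8w, and 494 and 57.5 CPM at 9w. All measured genes of these lists had counts, and their part in the rise of Il1f9 and Il1f5 was not tested. Other lists varied over the plates too. The sums of fibroblast, basal keratinocyte, upper hair follicle, scale keratinocyte and immune markers set both 0w plates apart from all later plates. Of the single basal markers only Krt14 did so. Krt17, Defb6 and Gata6 of the upper hair follicle overlapped, as did Col1a1, Pdgfra, Lum and Krt36. The 7 measured immune markers, S100a9 included, summed to 6.75 and 3.88 CPM at 0w and to between 9.79 and 1976 CPM later. Their sum was also higher on all healing than on all homeostatic plates. The 5 measured fibroblast genes summed to 25.4 and 20.5 CPM at 0w, 1.96 and 0.586 CPM at 1w, 3.10 and 4.31 CPM at 8w, and 3.71 and 15.9 CPM at 9w. The 6 hair follicle bulge markers summed to 2137 and 1237 CPM at 0w, 588 and 384 CPM at 1w, 1367 and 1057 CPM at 8w, and 826 and 1194 CPM at 9w. The 5 upper hair follicle markers summed to 8002 and 13702 CPM at 0w and to between 14640 and 32652 CPM on the later plates. The 5 basal keratinocyte markers summed to 2056 and 1605 CPM at 0w and to between 3778 and 5312 CPM later, and the 2 scale keratinocyte markers to 0 and 0.863 CPM at 0w and to between 1.80 and 1663 CPM later. All these genes had counts, and their part in the differences from 0w was not tested. Within the differentiated keratinocyte-like cluster Il1f9 averaged 92.1 and 83.1 CPM on the 1w plates, 49.3 and 119 CPM at 8w, and 24.4 and 110 CPM at 9w, and the plates of the 3 time points overlapped. In the same cluster Il1f5 averaged 15.2 and 50.7 CPM at 1w, 1.09 and 8.68 CPM at 8w, and 13.9 and 43.3 CPM at 9w, with both 8w plates below the others. Of the Il1f9-positive cells 87.9% had Krt14 counts, and 7 of 174 had Ptprc counts.

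To compare the genes with each other, levels were divided by the length of the annotated exons. On this scale of CPM per kilobase Il33 was highest at 0w with 54.4 ± 14.2 (SD of 2 plates), followed by Il1rn with 5.04 ± 3.57, Il18 with 1.23 ± 0.330 and Il1f9 with 0.748 ± 0.502. Il33 exceeded Il1rn by more than both SDs together, whereas Il1rn and Il18 differed by less. At 1w the order was Il1f9 (57.5 ± 8.53), Il33 (31.5 ± 26.5), Il1f8 (26.4 ± 9.54), Il18 (23.1 ± 13.2), Il1rn (12.05 ± 4.03), Il1f5 (6.75 ± 4.58) and Il1a (2.88 ± 2.10), and each neighbouring pair differed by less than the sum of their SDs. At 8w the mean of Il33 (36.0 ± 26.3) was followed by that of Il18 (14.2 ± 16.7), which differed by less than the sum of their SDs, and at 9w Il18 (37.6 ± 21.7), Il1f9 (32.9 ± 20.98) and Il33 (17.5 ± 21.8) overlapped.

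The receptors of the family were measured in the same cells. Of 9 receptor and decoy genes 8 were tested and 0 were called in any contrast by edgeR or by DESeq2, with 0 at an unadjusted p below 0.05 for healing against homeostatic plates and a median log2 fold change of -0.04. Il1rl2, the chain specific for interleukin-36, had counts in 353 cells and stood at 25.5 and 24.2 CPM at 0w, 55.4 and 41.7 CPM at 1w, 56.1 and 22.8 CPM at 8w, and 49.6 and 55.1 CPM at 9w (log2 fold change for healing 0.69, SE 0.38, adjusted p = 0.456). Its 8w plates were the highest and the lowest of all. Il1r1, the signalling receptor of interleukin-1, ranged from 4.80 to 22.8 CPM and differed by -0.72 on the log2 scale (SE 0.45, adjusted p = 0.518), and the accessory chain Il1rap from 12.02 to 69.3 CPM with -0.30 (SE 0.52, adjusted p = 0.861). The decoy Il1r2 reached at most 6.26 CPM, with counts in 17 cells (-2.22, SE 1.15, adjusted p = 0.414). Il18r1 lay between 0.809 and 6.31 CPM (0.22, SE 0.69, adjusted p = 0.926). The Il33 receptor Il1rl1 was too low to be tested, at 0 to 0.432 CPM with counts in 21 cells.

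Downstream of the receptors 0 of 20 signalling genes were called by edgeR in any contrast, and 3 had an unadjusted p below 0.05 for healing against homeostatic plates, a share close to the 14.9% of all genes. The median log2 fold change of the signalling genes was 0.19. DESeq2 called the adaptor Myd88 and the kinase Irak4 higher in that contrast, beside 7.3% of all genes, where edgeR gave 1.42 (SE 0.45, adjusted p = 0.166) and 1.58 (SE 0.44, adjusted p = 0.116), and it called Irak4 at 1w against 0w as well. The largest differences among signalling genes with an average log2 CPM of at least 4 were those of Rel (-1.03, SE 0.41, edgeR adjusted p = 0.269), Tollip (0.70, SE 0.36, adjusted p = 0.414), an inhibitor of Irak signalling, and Nfkb1 (-0.52, SE 0.50, adjusted p = 0.710). Of 20 genes of maturation and release 0 were called by edgeR in any contrast, 3 had an unadjusted p below 0.05 for healing, again close to the share of all genes, and DESeq2 called none there. DESeq2 called the gasdermin gene Gsdma2 higher at 1w, 8w and 9w than at 0w and with a smaller change in the second healing. In edgeR the log2 fold changes of Gsdma2 against 0w were 5.36 (SE 1.43, adjusted p = 0.157), 5.27 (SE 1.43, adjusted p = 0.616) and 4.31 (SE 1.38, adjusted p = 0.246), with counts in 30 cells. Casp1, which cuts the Il18 precursor, ranged from 8.46 to 90.5 CPM (0.10, SE 0.56, adjusted p = 0.957). The adaptor Pycard had values of 0.76 (SE 0.31, adjusted p = 0.297), the protease Ctsb 0.78 (SE 0.31, adjusted p = 0.280) and the pore-forming Gsdma 0.73 (SE 0.56, adjusted p = 0.616).

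Of 14 tested target genes of the pathway in keratinocytes, 2 were called by edgeR, both higher in healing plates, where 1.03% of all genes were called higher, and the median log2 fold change was 0.08. S100a9, an antimicrobial calcium-binding protein that neutrophils also make, stood at 0 CPM on both 0w plates, 1970 and 276 CPM at 1w, 10.01 and 0 CPM at 8w, and 20.1 and 103 CPM at 9w. The healing plates were all above the homeostatic plates. In edgeR the log2 change reached 10.40 (SE 1.79, adjusted p = 0.0247), a value that depends on the treatment of zeros. Tslp, an epithelial cytokine, stood at 0.104 and 0.162 CPM at 0w, 4.51 and 145 CPM at 1w, 2.09 and 0.0652 CPM at 8w, and 5.74 and 174 CPM at 9w, with counts in 29 cells. In edgeR it changed by 7.73 on the log2 scale (SE 1.55, adjusted p = 0.0388), and by 6.12 with the replicate block (adjusted p = 0.0601). The call of S100a9 was lost without 0w plate 1 (0.0806), 0w plate 2 (0.0782) or 1w plate 1 (0.0695). That of Tslp was lost without 0w plate 1 (0.145) or 2 (0.155), 1w plate 2 (0.0988), 8w plate 1 (0.0734) or 2 (0.128), or 9w plate 2 (0.0824). S100a8, the partner of S100a9, missed the threshold with 7.28 on that scale (SE 1.60, adjusted p = 0.0538) and passed with the replicate block (7.37, adjusted p = 0.0401). At 1w against 0w S100a9 missed it too (adjusted p = 0.0573) and passed with the block (adjusted p = 0.0353). DESeq2 called S100a8, S100a9 and Tslp higher at 1w and at 9w than at 0w and in healing plates, where it called 5.29%, 5.01% and 7.3% of all genes.

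A last comparison asked whether the change into the second healing (8w to 9w) differed from that into the first (0w to 1w). No member was called by edgeR for this difference, as for 0% of all genes, while 3 had an unadjusted p below 0.05 (5.34% of all genes) and DESeq2 called Il1f8, Il1f9 and 0.529% of all genes, the members both with a smaller change in the second healing. For Il1f9 the log2 change was 6.26 in the first healing and 2.18 in the second, a difference of -4.08 (SE 0.94, edgeR adjusted p = 0.686). Both 9w plates were below both 1w plates, and both 8w plates were above both 0w plates. For Il1f8 the difference was -6.43 (SE 1.70, adjusted p = 0.738), with a start at 0w near 0.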

How the data were processed

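Full-length Smart-seq2 libraries without molecular identifiers were made from single tdTomato-positive cells. The authors deposited a table of expected counts (estimated counts), for which the submitters' processing notes name Salmon 0.13.1, R 4.0.3, Seurat and GRCm38. The values were not normalised, and 96.6% were whole. How transcripts were summed to genes is not given in the sources used here. Each of the 696 cells passed the limits the study stated (1000 genes, 50% mitochondrial counts). All 696 columns were matched to a sample, and plates served as replicates because cells are not independent.

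Counts were summed per plate and rounded. Genes were tested with edgeR 4.0.16 in R 4.3.3 (all 8 plates in 1 fit, time point as the only term, TMM scaling, filterByExpr, quasi-likelihood test), which left 4 residual degrees of freedom. Calls needed a fold above 2 and an adjusted p (Benjamini-Hochberg, over all 13853 genes) below 0.05. Standard errors (SE) are the absolute log2 fold change divided by the square root of the test's F value. Levels are CPM after TMM scaling. A cell was positive with at least 1 count, and shares were compared by exact two-sided permutation of 4 healing against 4 homeostatic plates for every gene. A comparison of 2 plates with 2 cannot reach significance that way, so shares of single time points are given as values. Intervals are exact binomial (95%) and, like the floor of 3 counts, cover counting error only. Cells were clustered with scanpy 1.11.5 (2000 variable genes without members and pathway genes, 30 components, 15 neighbours, Leiden resolution 1). No doublet caller was run, as single cells were sorted into wells.

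Total counts per plate ranged from 12293182 to 19760820. In a trial on counts simulated for 1w against 0w (13503 genes), edgeR called 39.4% of changes of 3 and 86.7% of changes of 6 on the log2 scale. Same-numbered plates deviated together from their time point means in every pair of time points (r from 0.12 to 0.21), so the fit with the replicate number as a block is given where it changes the call of a member or of a pathway gene. DESeq2 1.42.0, other scalings and filters and the omission of each plate were the alternatives.

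Named genes were the members, 6 receptor genes and Casp1, pathway genes called in any contrast, the 3 genes per list with the largest absolute log2 fold change for healing at an average log2 CPM of at least 4, and the 3 closest correlates of members seen in 10% or more of cells. Members, lists and tests were chosen with earlier results of these data known. Of the pathway lists, 2 further ligands had no row in use and were not analysed here. Of 22 listed target genes 17 had a row and 14 were tested, and of 22 listed genes of maturation and release 20 had a row. Markers of endothelial cells and melanocytes were also listed: melanocyte genes (2 measured) summed to 1.44 to 6.59 CPM, and Pecam1, the endothelial gene measured, had counts in 687 cells and 109 to 1846 CPM per plate.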

Additional observations from a re-analysis of the deposited data

Results flagged for a closer look

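For 3 members the change into the second healing differed from that into the first at an unadjusted p below 0.05 in edgeR's test of the difference itself, as for 5.34% of all genes, and none of them passed the adjustment over 13853 genes. On the log2 scale the second change was smaller: the difference was -4.08 for Il1f9 (SE 0.94, unadjusted p = 0.00146, adjusted p = 0.686), -6.43 for Il1f8 (SE 1.70, unadjusted p = 0.00358, adjusted p = 0.738) and -3.73 for Il1a (SE 1.61, unadjusted p = 0.0426, adjusted p = 0.925). In each of the 3 genes both 0w plates were below both 8w plates, so the starting levels of the 2 changes differed as well. For Il1f8 the 8w level rests on plate 2 (27.0 CPM, 99.0% of it in 1 cell, against 4.32 CPM on plate 1), and without that plate the difference was -4.50. The range over the fits that left out 1 plate was -4.95 to -3.50 for Il1f9, -11.86 to -4.50 for Il1f8 and -5.14 to -2.54 for Il1a.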

How the results depend on the processing

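Of 770 recomputed member folds over all contrasts and settings, 28 changed sign, 0 of them among called values; the single folds given next were chosen after those changes had been seen. With the stricter filter on cells Il33 turned to 0.47 for healing against homeostatic plates and to 0.96 at 1w, and Il1rn to -0.17 at 1w and -0.10 at 9w (log2, against 0w); that filter kept 313 cells, 9 of them on 0w plate 2. The number of called members in healing against homeostatic plates was 5 with the replicate block, 5 with DESeq2, 4 without the highest cell of each member on each plate (chosen after seeing the data) and 1 with the stricter filter, against 2; of all genes these settings called 3.31%, 7.3%, 1.83% and 0.466%. At 1w against 0w it was 2 with the block, without the highest cells, and with only the plates compared, 5 with DESeq2, and 0 with every cell scaled equally or the stricter filter, against 1; of all genes the block called 1.7%, the fit without the highest cells 0.556%, DESeq2 5.29%, the fit of only the plates compared 0.974%, equal scaling 0.39% and the stricter filter 0.193%. At 9w against 0w it was 2 without the highest cells, 4 with DESeq2, and 0 with equal scaling, the stricter filter or only the plates compared, against 1, beside 5.01% of all genes with DESeq2 and 0.0723% to 0.274% in the other 4. DESeq2 called 3 members at 8w against 0w, 2 between 8w and 9w and 2 for the difference between the healings, where edgeR called 0. The block changed no other call of a member. Leaving out 1 plate gave 0 to 1 called members at 1w and at 9w against 0w, 1 to 2 for healing, and 5 to 6 members with separated shares. It moved the log2 difference for healing to 1.78 to 3.02 for Il1a, 1.76 to 2.55 for Il1rn, 2.41 to 4.10 for Il18 and 3.81 to 4.67 for Il1f9. At Leiden resolution 0.5, with fewer and larger clusters, 56.2% of the Il1rn signal lay in a cluster led by Slc46a2 and 80.9% of the Il1f9 signal in another led by Krt2. The cause of the other differences was not tested. Il1a and Il18 rest on few positive cells (30 and 50).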
